A study of Rattus norvegicus with 12 samples.

Results

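A set of 6 genes with high levels in INS-1 cells exposed to cytokines, and lower levels when the BET inhibitor I-BET762 was present, is described here: Htra3, Neurl3, Cd69, Cd83, Zc3h12a and Prkaa2. They are 6 of the 9694 genes in the deposited expression table and were found by their names, each on 1 row. They were chosen by their mean FPKM values in the 4 groups compared here, so every level and ratio of these groups is a description and not a test. INS-1 cells, grown from a rat insulin-producing tumour, stand in for β-cells, and the RNA of 12 libraries was sequenced, 3 in each group. The groups were cytokines with I-BET762 (CCIB), cytokines with vehicle (CCVC), I-BET762 alone (IB) and vehicle alone (VC), all in medium with 11 mM glucose. I-BET762 was given at 500 nM, and it or the vehicle was present for 48 h before the cytokine cocktail was added, which held 100 ng/mL of IFN-γ, 25 ng/mL of TNF-α and 10 ng/mL of IL-1β. Cytokines were present for 8 h by the treatment protocol and the study's text, whereas the design text has 24 h within a total of 72 h. All groups come from 1 insulinoma line, and nothing in the labels says whether the 3 libraries of a group came from separate cultures.

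The deposited values are FPKM, in which fragment numbers are divided by the gene's length and the library's total, with 1 mean value per group and 0 columns of single libraries in the table. No spread, interval or p-value can be computed from these 4 columns and the table gives no depth per library (the study states only a minimum number of reads per sample), so values are set side by side with no statement that a difference is larger than the error. Log2 ratios were taken after adding 1 FPKM to each mean, over the 8795 genes that averaged 1 FPKM or more across the 4 groups, and a gene was counted as higher or lower at 1.5-fold or more. All 6 genes passed that minimum. Each of these rows is a gene that the study had already found to be differentially expressed among the 4 groups. The term all genes, and each background share or median given for them, therefore refers to this selected set. They are not rates over the genome. In cell mixtures measured in bulk, fewer expressing cells and less RNA per cell cannot be told apart. Of 14 β-cell markers 11 were listed, with Ins1 at 20738 FPKM in CCIB, 10243 in CCVC, 26722 in IB and 11528 in VC. In CCVC against VC, 5 of these 11 were 1.5-fold or more lower (Mafa, Nkx6-1, Slc30a8, Pdx1 and Iapp), where 10.2% of all genes were. None was higher (background 13.9%). In CCIB against CCVC, 4 of the 11 were 1.5-fold or more higher (background 3.4%) and 0 were lower (background 11.6%). In IB against VC, 6 of the 11 were higher to that degree (background 4.96%) and 0 were lower (background 10.5%). The β-cell factor gene Mafa was at 55.3 FPKM in CCVC and 192 in VC. The part of these marker differences in the values of the 6 genes was not tested. Of 27 leucocyte markers, 4 were listed (Cd4, Coro1a, Itgal and Lcp2), with a summed level of 12.3 FPKM in CCIB, 18.8 in CCVC, 14.2 in IB and 20.7 in VC, while Ptprc, Cd3e and Itgam were among the 23 with no row. A missing row does not show that a marker was absent from the cells. The sum was lower with I-BET in both states, as each of the 4 genes was. It was also lower in CCVC than in VC, as were Coro1a (10.9 and 13.5 FPKM) and Itgal (0.493 and 1.61). Lcp2 was higher in CCVC than in VC (5.57 and 3.81 FPKM) and Cd4 was at 1.74 and 1.73. The part of this sum in the values of Cd69 and Cd83, genes best known from leucocytes, was not tested. Hexim1, an inhibitor of P-TEFb and a known responder to BET inhibitors, was at 13.1 FPKM in CCIB and 6.86 in CCVC, and at 37.8 in IB and 18.0 in VC.

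As background, IL-1β and TNF-α activate NF-κB, IFN-γ signals through its own receptor, and both routes switch on inflammatory genes in β-cells within hours. BET proteins bind acetylated histones and recruit the elongation machinery, and their inhibitors often lower genes that are newly switched on. The 6 genes have unlike roles. Cd69 and Cd83 encode membrane proteins known as activation markers of immune cells, Htra3 encodes a secreted serine protease, and Neurl3 and Zc3h12a encode enzymes that act on proteins and RNA inside the cell. Prkaa2 encodes a catalytic subunit of the energy sensor AMPK.

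All 6 genes were at their highest in CCVC and second highest in CCIB, but the size of the I-BET difference ran from a large one in Htra3 to a slight one in Zc3h12a. In CCVC against VC, 6 of 6 were 1.5-fold or more higher, where 13.9% of all genes were, and 0 of 6 were lower (background 10.2%). In CCIB against CCVC, 4 of 6 were 1.5-fold or more lower, where 11.6% of all genes were, and 0 of 6 were higher (background 3.4%). Among the 1223 genes past 1.5-fold in CCVC over VC, termed the cytokine-high genes, 17% were lower to that degree and 61.2% had any lower value, as 6 of 6 here did. The 4 past 1.5-fold were Htra3, Prkaa2, Cd83 and Neurl3. Cd69 and Zc3h12a were lower by less than 1.5-fold, so that the description of genes held down by I-BET fits these 2 only as a small difference. Both of these comparisons were used to pick the genes and both contain the CCVC libraries, so nothing is read from the counts. With ratios centred on their median, the split over all genes in CCIB against CCVC was 411 higher and 826 lower in place of 299 higher and 1022 lower, and the same 4 genes were past 1.5-fold.

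**Figure D1:**
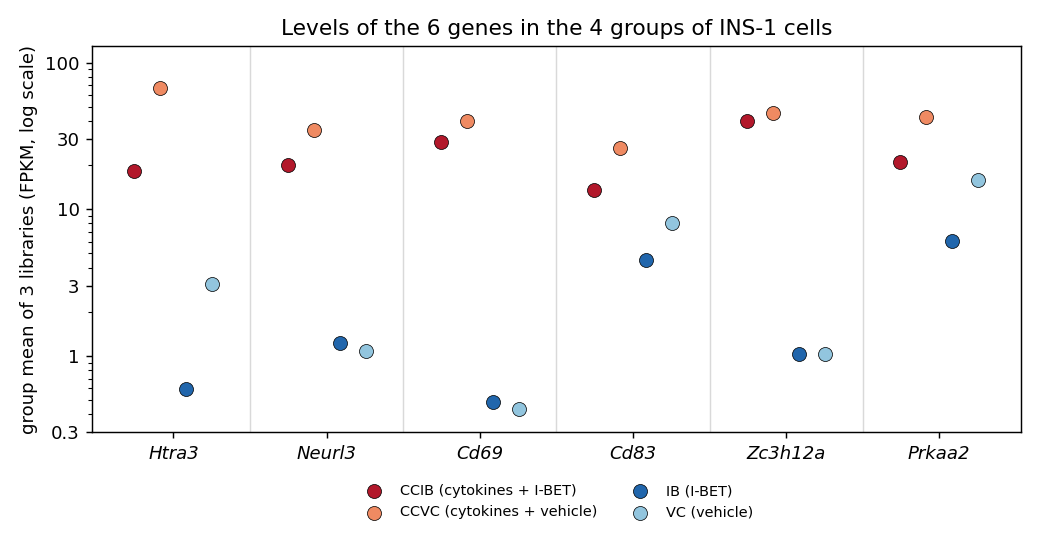
Mean FPKM of the 6 genes, on a log scale, in CCIB, CCVC, IB and VC; each point is 1 deposited group mean and no error is known. Both cytokine groups lie above both groups without cytokines for every gene, with CCVC on top, and Htra3 shows the widest gap between CCIB (18.2 FPKM) and CCVC (66.9 FPKM).

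Htra3 encodes a secreted serine protease of the HtrA family. It is listed as ENSRNOG00000008182 on chromosome 14 from 79875571 to 79902664 on the plus strand, in a genome build that is not given in the sources used here. Htra3 was at 18.2 FPKM in CCIB, 66.9 in CCVC, 0.598 in IB and 3.11 in VC. It had the highest CCVC level of the 6 genes, and its level with I-BET was lower by 72.8% in CCIB than in CCVC and by 80.8% in IB than in VC. The log2 ratios were 4.04 for CCVC to VC, -1.82 for CCIB to CCVC and -1.36 for IB to VC. By CCIB to CCVC it stood at place 11 from the lowest among the 1223 cytokine-high genes. Its promoter is shown because the gene differed most with I-BET. The 250 bases before the RefSeq start (GRCr8, chr14:79293291-79293540, plus strand) are printed with the GC box, GGGCGG on either strand, in capitals.
Htra3: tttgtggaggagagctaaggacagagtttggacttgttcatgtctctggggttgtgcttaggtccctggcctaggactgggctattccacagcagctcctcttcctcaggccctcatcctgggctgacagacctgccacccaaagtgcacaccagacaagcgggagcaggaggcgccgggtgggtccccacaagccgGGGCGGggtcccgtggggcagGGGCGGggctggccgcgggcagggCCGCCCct
Of the other 3 HtrA genes, Htra4, a further secreted member, was at 2.41 FPKM in CCIB, 7.66 in CCVC, 2.03 in IB and 5.44 in VC, lower with I-BET in both states but not 1.5-fold higher with cytokines. Htra2, the mitochondrial member, was past 1.5-fold in none of the 5 comparisons and Htra1 was not listed.

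Prkaa2 and Cd83 were lower with I-BET by a similar ratio whether or not cytokines were there. Prkaa2 encodes the α2 catalytic subunit of AMPK, the kinase that senses a falling energy charge (ENSRNOG00000007706, chromosome 5 from 128436023 to 128503874, minus strand). It was at 20.8 FPKM in CCIB, 42.5 in CCVC, 6.04 in IB and 15.9 in VC, the highest VC level of the 6. The level in CCIB was 50.9% lower than in CCVC, and that in IB was 62.0% lower than in VC. Cd83 encodes an immunoglobulin-type membrane protein that marks mature dendritic cells, and that in mice keeps MHC class II and CD86 at the cell surface. It is listed as ENSRNOG00000018092 on chromosome 17 from 26364944 to 26384002, plus strand. Cd83 was at 13.5 FPKM in CCIB, 26.3 in CCVC, 4.50 in IB and 8.09 in VC. The level in CCIB was 48.4% lower than in CCVC, and that in IB was 44.4% lower than in VC. These 2 genes had the smallest cytokine differences of the 6, at 2.67-fold for Prkaa2 and 3.24-fold for Cd83 between CCVC and VC with no pseudocount. With I-BET the CCIB level of Prkaa2 was 1.31-fold that of VC, under the 1.5-fold mark, and it is the only one of the 6 for which CCIB did not pass 1.5-fold over VC (background 13.7%), with none of the 6 lower in that comparison (background 21%).

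The start of Cd83 is shown because it held matches to the NF-κB consensus, which the 250 bases before the starts of Htra3, Cd83, Zc3h12a and Prkaa2 did not. In these stretches (GRCr8, minus strand, chr17:21112663-21112683 and chr17:21112639-21112658) the matches are in capitals, and the first is 2 overlapping matches.
Cd83, bases -1 to 10 from the start in capitals: cggctGGGGAGTCCCCggggc
Cd83, bases 25 to 34 from the start in capitals: gcgcgGGGAAGTCCCaagcg
The RefSeq gene runs on the minus strand of GRCr8 and the deposited row on the plus strand of its own build. The consensus was found in 7.51% of all 33469 RefSeq windows that run from 250 bases before to 50 after a start.

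Neurl3, Cd69 and Zc3h12a were at 0.434 to 1.23 FPKM without cytokines, with or without I-BET, and far higher with cytokines. Neurl3 encodes a RING-type ubiquitin ligase, known in mice as a lung gene induced by inflammation (ENSRNOG00000015366, chromosome 9 from 42485860 to 42494020, minus strand). It was at 20.1 FPKM in CCIB, 35.0 in CCVC, 1.23 in IB and 1.07 in VC. The CCIB level was 42.6% below the CCVC level, whereas IB and VC were both close to 1 FPKM. Cd69 encodes a C-type lectin-like receptor, an early activation marker of lymphocytes that keeps the receptor S1PR1 off the cell surface (ENSRNOG00000007909, chromosome 4 from 211685115 to 211693033, minus strand). It was at 28.9 FPKM in CCIB, 39.7 in CCVC, 0.484 in IB and 0.434 in VC, the largest log2 ratio of CCVC to VC among the 6 (4.83, place 4 of 1223). The CCIB level was 27.2% below the CCVC level, a log2 ratio of -0.44 at place 291 from the lowest. Zc3h12a encodes regnase-1, an RNase that degrades mRNAs of inflammatory proteins (ENSRNOG00000009131, chromosome 5 from 146878973 to 146887760, minus strand). It was at 40.2 FPKM in CCIB, 45.5 in CCVC, 1.04 in IB and 1.03 in VC. The CCIB level was 11.6% below the CCVC level, a log2 ratio of -0.17 at place 534 of the 1223 genes, beside a median of -0.11 over these genes. Its promoter is shown as that of the gene that differed least with I-BET (GRCr8, chr5:142669986-142670235, minus strand), again with the GC box in capitals.
Zc3h12a: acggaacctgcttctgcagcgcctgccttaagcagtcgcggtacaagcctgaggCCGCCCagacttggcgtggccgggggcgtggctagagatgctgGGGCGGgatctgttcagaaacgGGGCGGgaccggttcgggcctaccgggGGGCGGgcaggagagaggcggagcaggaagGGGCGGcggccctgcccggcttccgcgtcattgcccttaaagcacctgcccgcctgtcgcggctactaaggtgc

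RefSeq held promoters for 4 of the 6 genes, Htra3, Cd83, Zc3h12a and Prkaa2. The GC box GGGCGG, searched on both strands, was found within 250 bases before the start in all 4, against 30.5% of 33469 RefSeq promoters, and the Htra3 and Zc3h12a sequences above held 3 and 5 of them. GC content over these bases was 66.0% for Htra3, 66.4% for Cd83, 69.2% for Zc3h12a and 72.8% for Prkaa2, beside a median of 51.2% over all promoters (quartiles 44% and 60%). No match was found in these 250 bases of the 4 genes to the AP-1 motif TGANTCA (6.34% of all promoters), the GAS motif TTCNNNGAA (7.67%), the NF-κB consensus (6.33%) or the TATA box TATAAA (12.9%). GC content was thus above the upper quartile of all RefSeq promoters in each of the 4. Neurl3 and Cd69 had no entry, and no background was taken over the listed genes alone. A link of GC content to the I-BET difference was not tested. A match is a run of letters and not a shown binding site, and a missing match says nothing on distal enhancers.

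Without cytokines, I-BET went with a 1.5-fold difference only in the 3 genes with the higher VC levels. These were at 3.11 to 15.9 FPKM in VC, and the other 3 at 0.434 to 1.07. With 5 FPKM added in place of 1, only Prkaa2 passed 1.5-fold. In IB against VC, 3 of 6 were 1.5-fold or more lower (Htra3, Prkaa2 and Cd83), where 10.5% of all genes were, and this count was taken from the same VC libraries as the cytokine comparison. Among the 1223 cytokine-high genes, 144 were lower to that degree in IB, which is 11.8%. The other 3 had log2 ratios of 0.10 (Neurl3), 0.05 (Cd69) and 0.00 (Zc3h12a), at levels where a change of a fraction of 1 FPKM is hard to see. The order of the 4 groups was CCVC, CCIB, VC, IB from the highest for the first 3 genes and CCVC, CCIB, IB, VC for the other 3. Among all 8795 genes these orders were seen for 12.0% and 5.07%, and among the 1223 cytokine-high genes for 37.4% and 16.1%.

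**Figure D2:**
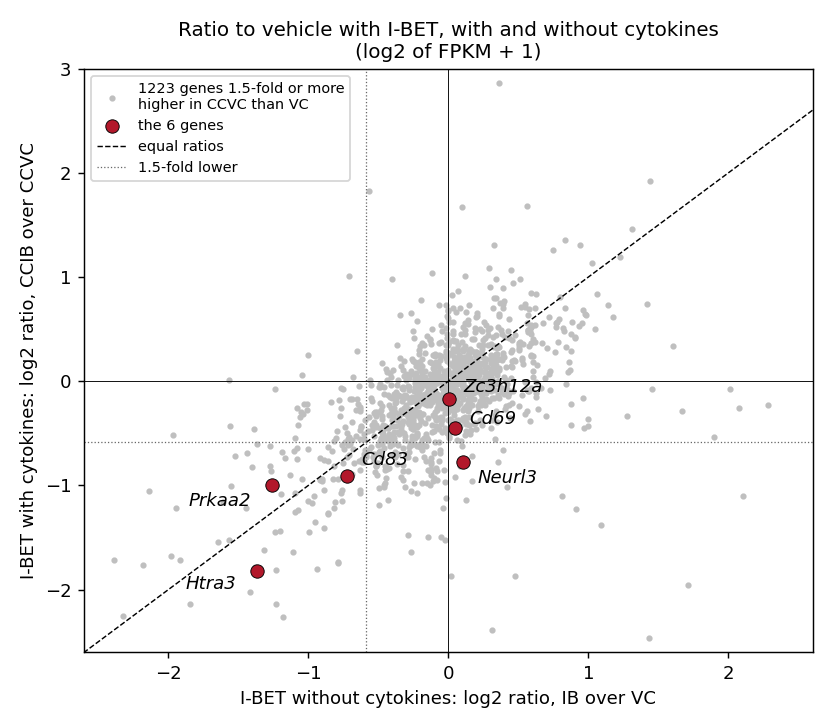
Log2 ratio with I-BET over vehicle in cytokine-exposed cells (CCIB over CCVC, y axis) against that in cells without cytokines (IB over VC, x axis) for the 6 genes (red) and the 1223 cytokine-high genes, those past 1.5-fold in CCVC over VC (grey). The dashed line marks equal ratios. Cd83, Prkaa2 and Htra3 lie at the lower left (-0.73, -1.26 and -1.36 on the x axis). Zc3h12a, Cd69 and Neurl3 lie at 0.00 to 0.10 on the x axis and below 0 on the y axis.

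All 6 genes were still past 1.5-fold with cytokines when I-BET was present. In CCIB against IB, 6 of 6 were 1.5-fold or more higher, where 12.9% of all genes were, with log2 ratios of 1.40 for Cd83 to 4.34 for Zc3h12a. With no pseudocount, Prkaa2 was 3.45-fold higher with cytokines under I-BET and 2.67-fold higher under vehicle. For Cd83 these folds were 3.01 and 3.24, and for Zc3h12a 38.8 and 44.1. For Cd69 the folds were 59.8 and 91.6, and for Neurl3 16.4 and 32.6, which is the largest gap of the 6 as a ratio of the folds. The difference of the 2 log2 cytokine ratios (under I-BET minus under vehicle, with 1 FPKM added) was -0.88 for Neurl3, -0.49 for Cd69, -0.18 for Cd83, -0.18 for Zc3h12a and 0.27 for Prkaa2. Neurl3 was thus the only one of the 6 in which this difference passed 1.5-fold, and Prkaa2 the only one in which it was above 0 at 1 FPKM. Its median over all 8795 genes was -0.03. For Htra3 the sign turned with the pseudocount, at -0.46 with 1 FPKM and -1.10 with 5 FPKM but 0.33 with 0.1 FPKM and 0.50 with none (30.4-fold under I-BET and 21.5-fold under vehicle), with IB at 0.598 FPKM. No direction is given for Htra3 on this measure.

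**Figure D3:**
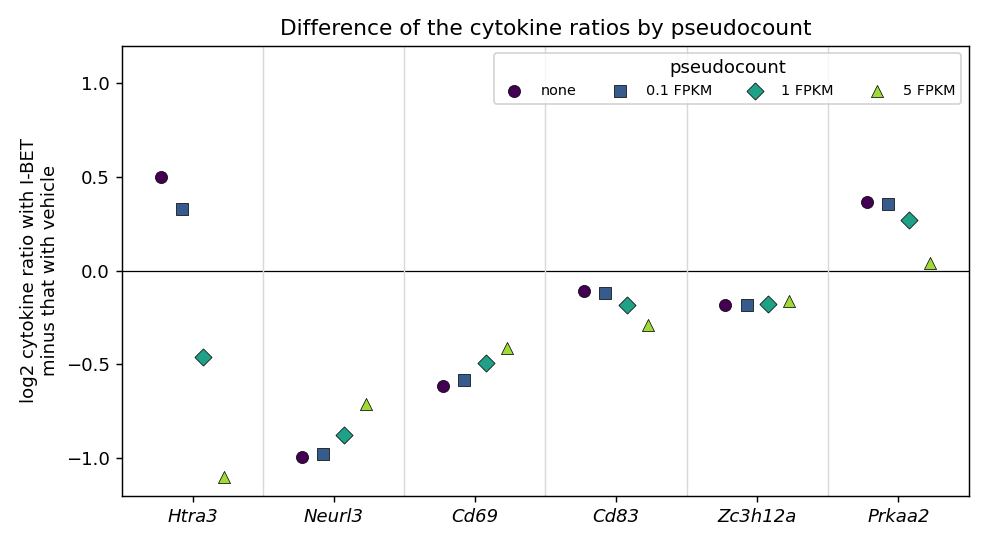
Log2 ratio of CCIB to IB minus that of CCVC to VC for each gene, with pseudocounts of none, 0.1, 1 and 5 FPKM (marker shapes). The points of Htra3 lie on both sides of 0 (0.50 to -1.10), those of Neurl3, Cd69, Cd83 and Zc3h12a all lie below 0 and those of Prkaa2 above it.

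In FPKM, each gene kept part of its cytokine increment under I-BET. The increment was 17.6 FPKM with I-BET (CCIB minus IB) and 63.8 with vehicle (CCVC minus VC) for Htra3, so that 27.6% was kept. For Cd83 49.8% was kept (9.05 and 18.2 FPKM), for Neurl3 55.6% (18.8 and 33.9) and for Prkaa2 55.7% (14.8 and 26.6). Cd69 kept 72.4% (28.4 and 39.3 FPKM) and Zc3h12a 88.1% (39.2 and 44.4). The median over the 1223 cytokine-high genes was 85.5% (quartiles 57.5% and 116%), with 5 of the 6 below that median and Zc3h12a above it. The genes were picked on these same values, so nothing is read from their place. Prkaa2 thus showed a smaller increment and a larger ratio with I-BET, since its level without cytokines was lower as well.

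The other AMPK genes are given for their values beside Prkaa2, which had been picked for its levels in these groups. AMPK is built of an α, a β and a γ subunit, and 4 of the other 6 subunit genes were listed. Prkaa1, which encodes the other α subunit, was at 22.8 FPKM in CCIB, 20.5 in CCVC, 20.6 in IB and 19.2 in VC. Per length, the Prkaa2 level was above that of Prkaa1 in CCVC and below it in the other 3 groups. None of the 4 was 1.5-fold higher or lower in CCIB against CCVC or in IB against VC. The β subunit gene Prkab2 was the only one that passed 1.5-fold in CCVC against VC, at 6.61 FPKM in CCIB, 5.03 in CCVC, 3.19 in IB and 2.28 in VC. Of 7 genes of kinases upstream of AMPK and of their partner proteins, 3 were listed (Cab39, Strada and Map3k7). Only Map3k7, which encodes TAK1, was past 1.5-fold in these comparisons. Its log2 ratios were 0.99 for CCVC to VC and -0.96 for CCIB to CCVC, at low levels (3.37 FPKM in CCVC).

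**Figure D4:**
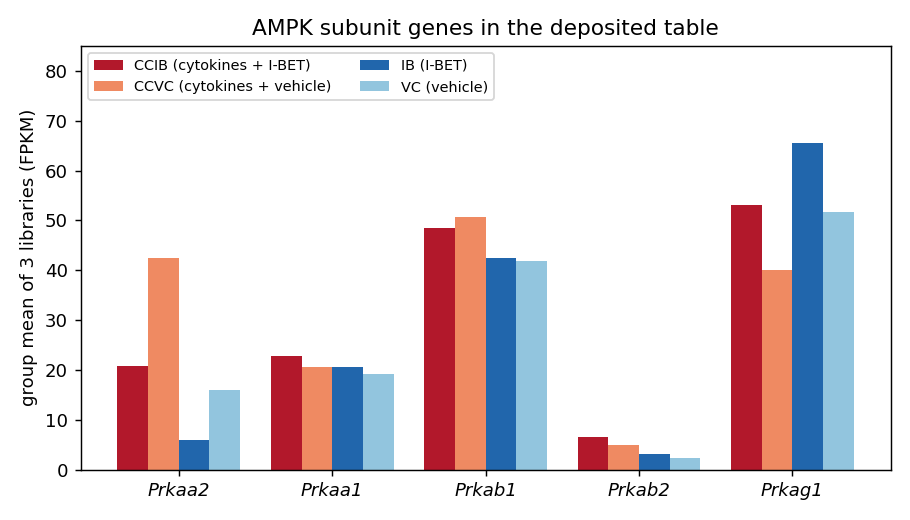
Mean FPKM of Prkaa2 and the other 4 listed AMPK subunit genes in CCIB, CCVC, IB and VC; bars are deposited group means with no known error. Prkaa2 is at 42.5 FPKM in CCVC and 6.04 in IB, whereas Prkaa1 stays between 19.2 and 22.8 FPKM.

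Known NF-κB targets are given for their values beside the 6 genes, which had been picked for a lower level with I-BET. Of 23 such genes other than Cd69, Cd83 and Zc3h12a, 18 had a mean of at least 1 FPKM. Of these, 17 passed 1.5-fold in CCVC over VC (background 13.9%). In CCIB against CCVC, 1 of these 17 was past 1.5-fold on the lower side, 4 were past it on the higher side and 12 were neither (backgrounds 11.6% lower and 3.4% higher over all genes, and 17% lower over the cytokine-high genes), with a median log2 ratio of 0.21 beside -0.07 for all genes. The lower one was Ccl20, a chemokine of lymphocytes, at 1.44 FPKM in CCIB with a log2 ratio of -1.52 to CCVC, and listed at 0 in IB. Bcl3 was just short of the mark, at a log2 ratio of -0.58 (2.63 FPKM in CCIB and 4.43 in CCVC). With no pseudocount its CCIB level was 0.594-fold that of CCVC, which is past 1.5-fold. Among the higher ones were Sod2, the mitochondrial superoxide dismutase (817 FPKM in CCIB and 383 in CCVC), and Ccl2, a chemokine of monocytes (20.0 in CCIB and 5.57 in CCVC). The NF-κB subunit genes Relb and Nfkb1 were past 1.5-fold in CCVC over VC and not past it in CCIB against CCVC. Relb was at 122 FPKM in CCIB and 101 in CCVC, and Nfkb1 was at 72.7 FPKM in CCIB and 67.9 in CCVC. Of 6 receptor genes for the cytokines, 4 were listed (Il1r1, Il1rap, Ifngr1 and Ifngr2). All 4 passed 1.5-fold in CCVC over VC (background 13.9%). In CCIB against CCVC only Il1rap passed it, on the higher side, at 11.0 FPKM in CCIB and 6.14 in CCVC (background 3.4%). Il1r1 was higher by less (75.9 FPKM in CCIB and 55.2 in CCVC). Ifngr1 (26.3 and 36.6) and Ifngr2 (23.1 and 24.4) were lower in CCIB, also by less than 1.5-fold.

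**Figure D5:**
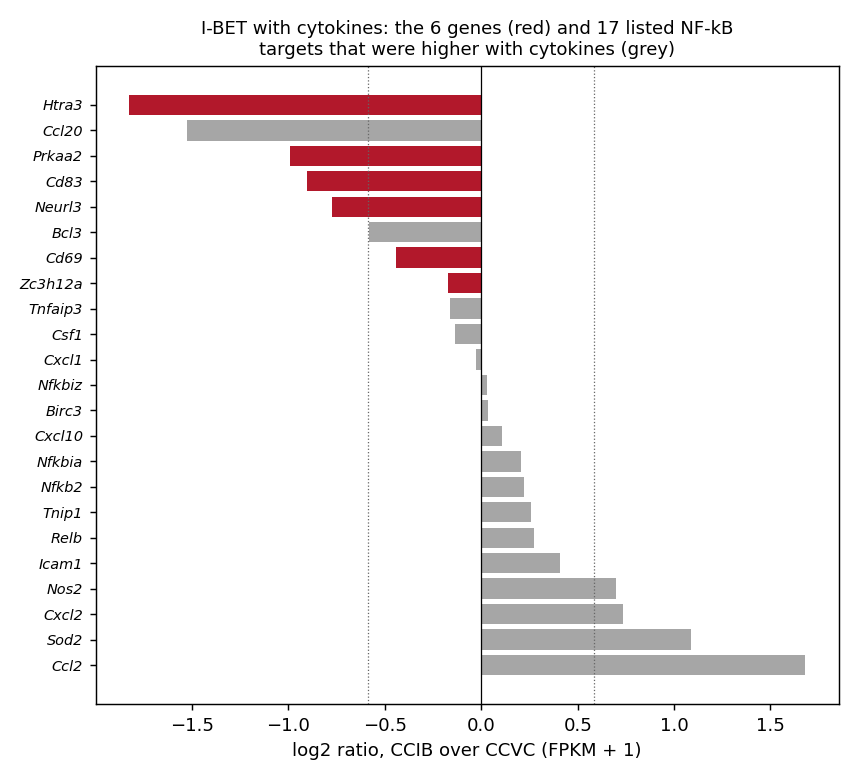
Log2 ratio of CCIB to CCVC for the 6 genes (red) and the 17 listed NF-κB targets past 1.5-fold in CCVC over VC (grey), with dotted lines at 1.5-fold. Htra3, Prkaa2, Cd83 and Neurl3 lie left of the lower line at -1.82 to -0.77. Ccl20 is the only grey bar there, with Bcl3 just short of the line (-0.58). On the other side 4 grey bars pass the upper line, with Ccl2 at 1.68.

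Genes related to the others by function had their own patterns. Cd40, a co-stimulatory receptor, was at 5.48 FPKM in CCIB, 9.88 in CCVC, 0.119 in IB and 0.712 in VC, lower with I-BET in both states as Cd83 was. Cd74, the invariant chain of MHC class II, was at 12.2 FPKM in CCIB, 15.3 in CCVC, 4.96 in IB and 5.05 in VC. Among mRNAs that regnase-1 is known to degrade in mice, 4 of 8 were listed. In CCVC against VC, 3 of them were 1.5-fold or more higher (background 13.9%), as Zc3h12a was. Nfkbiz was at 13.9 FPKM in CCIB, 13.6 in CCVC, 3.43 in IB and 1.74 in VC, Rel at 8.10, 6.88, 3.91 and 2.87, and Nfkbid at 2.52, 4.39, 1.37 and 1.69 in the same order of groups. The fourth was the transferrin receptor gene Tfrc, at 63.5 FPKM in CCIB and 96.5 in CCVC, and at 56.2 in IB and 96.0 in VC. Of 11 other genes of mRNA decay and its regulation, 6 were listed. Only N4bp1 was past 1.5-fold in CCVC against VC (44.9 and 26.9 FPKM), where 13.9% of all genes were higher to that degree. Of 10 relatives and partners of Cd69, 3 were listed and only S1pr2, a receptor of sphingosine 1-phosphate, averaged 1 FPKM, at 1.62 FPKM in CCIB, 2.61 in CCVC, 0.771 in IB and 1.80 in VC. Of 5 other neuralized genes, 4 were listed, and Neurl1 went the other way with I-BET, at 268 FPKM in CCIB, 135 in CCVC, 99.4 in IB and 78.4 in VC, while Neurl2 was at 1.05 FPKM in CCIB, 2.76 in CCVC, 1.11 in IB and 2.21 in VC.

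The genes with the nearest pattern were sought by the distance over 3 log2 ratios (CCVC to VC, IB to VC and CCIB to CCVC) among 7284 named genes that reached 5 FPKM in some group. Cd69 and Zc3h12a were nearest to each other, at a distance of 0.42, and next came the growth factor gene Csf1 (0.53 from Cd69 and 0.44 from Zc3h12a) and the potassium channel gene Kcnq3. For Neurl3 they were Zc3h12a (0.72), Cd69 (0.78) and C1ql4 (0.84). For Prkaa2 they were Lgals9, which encodes galectin-9 (0.18), Fstl4 and the bicarbonate transporter gene Slc4a4 (0.23 each). Lgals9 was at 49.3 FPKM in CCIB, 90.6 in CCVC, 15.1 in IB and 37.9 in VC. For Cd83 they were Hsd17b11 (0.30), Bbc3, which encodes the pro-apoptotic protein PUMA (0.30), and Rasgrp3 (0.32), with Bbc3 at 20.9 FPKM in CCIB, 37.5 in CCVC, 8.00 in IB and 11.3 in VC. Htra3 had no near gene, as the first 3 were Sema4a at 1.44, Ppp1r17 at 1.67 and Wscd2 at 1.75. The distances rest on 4 group means each, and no shared control is read from them.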

How the data were processed

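RNA of INS-1 cells was sequenced from 12 libraries, 3 in each of the CCIB, CCVC, IB and VC groups. Reads were aligned by the authors with HISAT2, and they deposited 1 table of FPKM values, as 4 group columns for the 9694 genes called at an adjusted p under 0.05. DESeq2 is named in the submitters' processing notes, and versions, genome build and strand setting are not given in the sources used here. The CCIB and CCVC columns equal, within 0.1%, the mean of the 3 libraries for each of 1752 genes of a supplementary table that holds those libraries singly, and its values were used for nothing else. The table holds 0 other columns of samples, and a gene outside it is called not listed.

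Log2 ratios were computed after adding 1 FPKM, for 5 comparisons, over genes averaging 1 FPKM or more, and counted at 1.5-fold. Each group is 1 column of the deposited table, so no test was made. The calculation was tested on simulated group means. The members and the lists of other genes were chosen with earlier results of these data known. Named genes are the 6 members, list genes past 1.5-fold in some comparison, the 3 nearest profiles (named genes reaching 5 FPKM) and the neighbours in the table; other names are given as group markers or for contrast, after their values had been seen. Promoters are from RefSeq (GRCr8). Alternatives were pseudocounts of 0.1 and 5 FPKM, no minimum, a minimum mean of 5 FPKM, centred ratios, upper-quartile scaling and criteria of 1.25-fold and 2-fold, and, added after the values were seen, no pseudocount. Python 3.11.15, numpy 2.4.6, pandas 2.3.3 and matplotlib 3.10.9 were used. Some genes of the lists are not reported here.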

Additional observations from a re-analysis of the deposited data

How the results depend on the processing

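No paired analysis was possible because the deposited columns are group means and carry no replicate numbers, and no replicate was left out for the same reason. Single-library values of CCIB and CCVC in a supplementary table were not analysed here. With a pseudocount of 5 FPKM, 1 of the 6 genes in place of 3 was past 1.5-fold in IB against VC, with Htra3 and Cd83 under it at log2 ratios of -0.54 and -0.46, and CCIB against VC went under it for Cd83 (0.50). At 2-fold, 1 of the 6 in place of 4 passed in CCIB against CCVC, namely Htra3, with Prkaa2 at -0.99. The log2 difference of the cytokine ratios of Htra3 was 0.33 with 0.1 FPKM, 0.50 with no pseudocount and -1.10 with 5 FPKM in place of -0.46, and that of Cd69 was -0.61 with no pseudocount in place of -0.49, past 1.5-fold. Every other log2 ratio of the 6 genes kept its direction and its side of 1.5-fold under the settings run, 207 of 210 values. Over all genes, the 1223 higher in CCVC than in VC became 759 with 5 FPKM, 2343 at the laxer fold criterion and 524 at 2-fold, the 1022 lower in CCIB than in CCVC became 419, 2373 and 291, and 619 with a minimum mean of 5 FPKM, and the 921 lower in IB than in VC became 406, 2194 and 291, and 581 with that minimum. The 1136 higher in CCIB than in IB became 694, 2185 and 520, and the 1205 higher in CCIB than in VC became 750, 2288 and 515. Fewer or more genes pass by the construction of these settings. The table gives neither depth nor replicate error, so values near 1 FPKM and below, those of Cd69, Zc3h12a, Neurl3 and Htra3 in IB and of the first 3 in VC, are the least certain.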

Other observations

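Of the 12 genes next to the 6 in the deposited table, 2 passed 1.5-fold in CCVC over VC, where 13.9% of all genes did, and Sh3tc1 and Clec2g averaged under 1 FPKM. Gabarapl1, which encodes an autophagy protein and lies 244 kb from Cd69, was at 124 FPKM in CCIB, 141 in CCVC, 82.4 in IB and 89.9 in VC. Ppap2b, which encodes a lipid phosphatase and lies 47.3 kb from Prkaa2, was at 6.10 FPKM in CCIB, 4.56 in CCVC, 0.419 in IB and 0.543 in VC, higher in CCIB than in CCVC. Arid5a, which in mice stabilises inflammatory mRNAs that regnase-1 degrades, lies 40.3 kb from Neurl3 and was higher with I-BET in both states, at 4.75 FPKM in CCIB and 2.59 in CCVC, and at 5.69 in IB and 2.19 in VC. Meaf6, 8.12 kb from Zc3h12a, was at 49.0 FPKM in CCIB, 42.1 in CCVC, 54.7 in IB and 44.5 in VC, and Sh3tc1, 18.1 kb from Htra3, had at most 0.681 FPKM. Genes that are not in the table may lie between these neighbours.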
